A study of Mus musculus with 207 samples.

Results

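Bone-marrow derived macrophages were compared between cultures with the highest and those with the lowest expression of 5 genes of the amino-acid stress response. The series holds 207 cultures, 1 from each mouse and each hybridized to 1 Affymetrix 430v2 array. All mice were 16 weeks old, lacked apoE and belonged to the F2 generation of an intercross of the AKR and DBA/2 strains, so that each one carried its own mixture of the parental genomes. Marrow cells grew for 2 weeks in DMEM supplemented with fetal bovine serum (10%) and L-cell medium (20%), which supplies the growth factor M-CSF. The high cultures were 45 (23 from females and 22 from males), and so were the low cultures (23 from females and 22 from males), 90 of the 207 in all. No treatment, amino-acid content of the medium or culture batch is given in the labels, and the groups are the ends of a continuous range within 1 set of conditions.

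When amino acids run short, uncharged tRNA activates the kinase GCN2, which phosphorylates the translation factor eIF2. Other kinases phosphorylate the same factor when proteins misfold in the endoplasmic reticulum, when viral RNA is present or when heme is lacking. Most translation then slows while that of the transcription factor ATF4 increases, and ATF4 with partners such as the C/EBP proteins switches on genes that make, import and charge amino acids.

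The cultures were selected on the expression of Asns (asparagine synthetase), Psat1 (a serine synthesis enzyme), Trib3 (a pseudokinase that restrains ATF4), Ddit3 (the transcription factor CHOP) and Chac1 (an enzyme that degrades glutathione). Within each sex, the score of a mouse was the mean of the standardized log2 signals of these 5 genes. Each mouse has a code with a number in it, and the residual of the score on the rank of that number was used. The high and low cultures are the upper and lower of 4 equal parts of the residuals in each sex. A set of 24 males numbered 55 to 78, whose array medians were mostly higher (76.2 to 122.6 MAS5 units, against 54.8 to 79.1 in the other males), was left out. That left 183 mice, of which 93 lay between the groups.

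The values of the 5 genes only describe this choice and were not tested. Asns had a signal, in MAS5 units, of 1837 in high females (median, range 845.5 to 3867) and 474.2 in low females (233.3 to 773.8), and 2501 in high males (914.3 to 4927) and 617 in low males (309.2 to 1555). The medians of Psat1 were 683.2 and 142.5 in high and low females and 965 and 260.0 in high and low males, and those of Chac1 were 508.5 and 151.2 in high and low females and 524.2 and 143.4 in high and low males. For Trib3 the medians were 396 and 129.1 in high and low females and 486.6 and 191.7 in high and low males, and for Ddit3 they were 1923 and 759.3 in high and low females and 1637 and 921.5 in high and low males. The ends were cut from a continuous distribution: the last high female had a residual of 0.53 and the next female one of 0.51, while the last low female had one of -0.58 and the next female one of -0.57. In males the residuals at these borders were 0.50 and 0.48 above and -0.45 and -0.42 below.

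**Figure D1:**
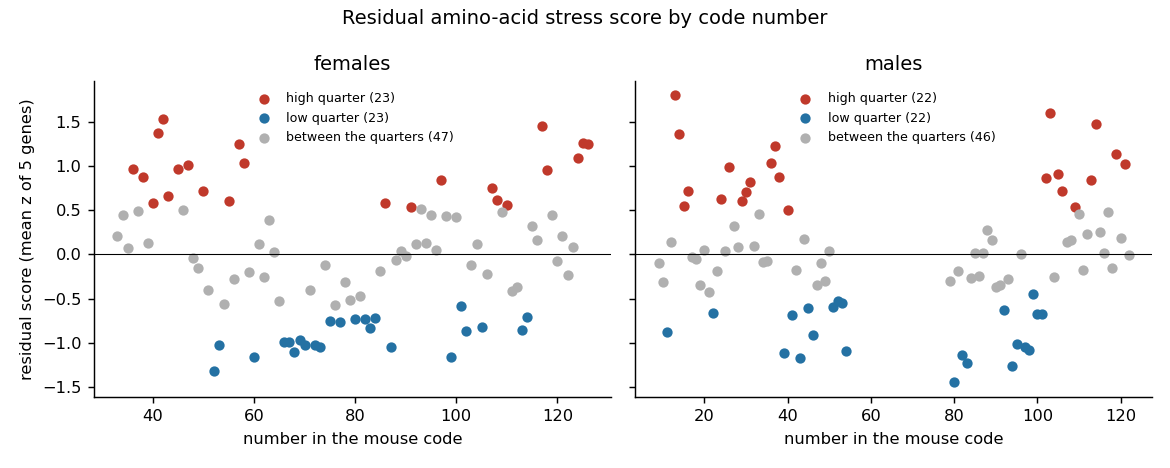
Residual score (mean z of 5 genes, y axis) against the number in the mouse code (x axis) for 93 females and 90 males, with 1 point per mouse, in red for the high, blue for the low and grey for the other cultures. In the middle block of code numbers lay 2 high and 14 low females, and 1 high and 13 low males.

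The residuals still varied with the code number. The mice of each sex were put into 3 equal blocks by code number. The first, middle and last block held 12, 2 and 9 of the high females and 3, 14 and 6 of the low females, and 12, 1 and 9 of the high males and 2, 13 and 7 of the low males. Anything else that changed along the code numbers therefore cannot be fully told apart from the score. All fits carry a linear term for the code number, and the main results are also given within the first and the last block, as plain differences of group means. The middle blocks, with 2 and 1 high cultures, were not used in this way.

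Ratios of 3' to 5' signal, a measure of RNA integrity, moved with the groups. The median signal of an array, in MAS5 units, had group medians of 61.7 and 63.8 in high and low females and 64.6 and 63.4 in high and low males. The ratio of Gapdh had medians of 0.868 in high females (0.810 to 0.995) and 0.943 in low females (0.851 to 1.12), and of 0.782 in high males and 0.793 in low males. That of actin had medians of 1.223 in high females and 1.302 in low females, and of 1.197 in high males and 1.241 in low males. With both ratios as covariates, 767 genes were higher and 490 lower in the high cultures of both sexes, against the 806 and 533 given next.

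Transcripts were tested with limma on log2(signal + 1), with Benjamini-Hochberg adjustment over 19821 probe sets that exceeded 100 MAS5 units in at least 61 of the 183 mice. They are counted as 10123 genes by the brightest probe set of each, without the 5 genes of the score. In high females 1764 genes (17.4% of those tested) were higher and 1735 (17.1%) lower than in low females. In high males 1164 genes (11.5%) were higher and 728 (7.19%) lower than in low males. In both sexes 806 genes (7.96%) were higher and 533 (5.27%) lower, and 8 genes were called in opposite directions. For 0 of the 10123 genes, in either sex, did all high cultures lie on one side of all low cultures. Of the 806 higher genes, 86 had a median below 100 MAS5 units in the low cultures, and such genes could pass the signal minimum through the high cultures or the mice between the groups.

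These counts depended on how the code number and the arrays were treated. With the block of code numbers as a term in place of the line, 261 genes were higher and 142 lower in both sexes. Scaling all arrays to 1 median gave 849 higher and 1101 lower genes in high males (43.5% of the calls higher, against 61.5% without it), and 46.8% against 50.4% in females. The median difference over all genes was -0.00 in females and 0.02 in males on the log2 scale.

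**Figure D2:**
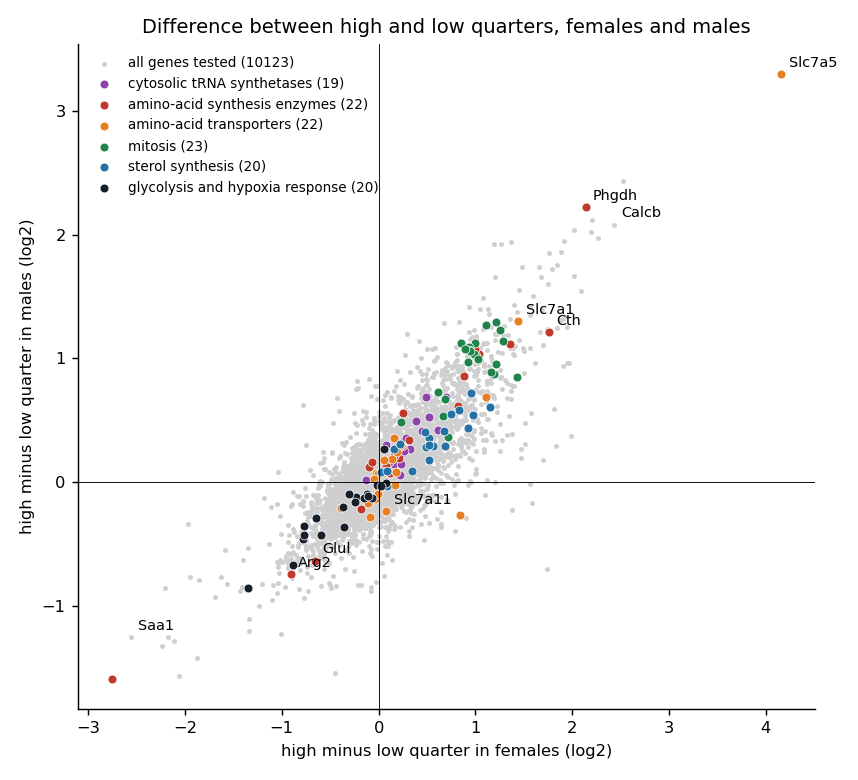
High minus low difference (log2) in females (x axis) and males (y axis) for 10123 genes, 1 point per gene, with the members of 6 gene lists in colour. Slc7a5 lies farthest from 0 at the upper right, at 4.16 in females and 3.30 in males, and the mitosis genes have medians of 0.99 in females and 1.02 in males.

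In all counts that follow, beside a count of 0 stands, in parentheses, the number at an unadjusted p under 0.05 in the same limma fit. List counts are to be read beside all genes, of which 17.4% were higher and 17.1% lower in high females. In high males these shares were 11.5% and 7.19%, and in both sexes 7.96% and 5.27%. Of 22 measured enzymes of amino-acid and one-carbon synthesis other than the score genes, 10 were higher and 3 lower in high females, and 11 were higher and 2 lower in high males. In both sexes 10 were higher and 2 lower, and the median difference of the list was 0.19 in females and 0.20 in males. That median was 0.29 and 0.04 in the first and the last block of females and 0.29 and 0.23 in those of males. With a spline of the code number 6 members passed upwards in females and 7 in males. Phgdh catalyzes the first step of serine synthesis from glucose. Its signal was 995.9 in high females (median, range 366.8 to 2134) and 196.1 in low females (43.5 to 450.1), and 752.4 in high males (362.8 to 1999) and 192.1 in low males (9.1 to 465.5). The groups overlapped little, as 21 of the 23 low females and 21 of the 22 low males lay below every high culture of their sex. The difference was 2.14 ± 0.21 in females and 2.22 ± 0.21 in males (log2 ± SE, limma adjusted p = 2.73e-13 and 1.45e-13), or 4.41 and 4.66-fold. It was 2.32 and 2.35 in the first and the last block of females and 1.48 and 2.37 in those of males.

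Psph, which completes serine synthesis, had a signal of 671.6 in high females (median, range 428 to 1132) and 384.6 in low females (313.7 to 443), and 748 in high males (515.2 to 1350) and 463.4 in low males (327.7 to 620.1). In females 22 of the 23 high cultures, and in males 15 of 22, lay above every low culture. The difference was 0.82 ± 0.07 in females and 0.62 ± 0.07 in males (limma adjusted p = 1.08e-16 and 1.19e-10). Mitochondrial Shmt2, which turns serine into glycine and a one-carbon unit, was higher by 1.04 ± 0.11 in females and 1.04 ± 0.11 in males (adjusted p = 2.16e-12 and 7.44e-12). Mthfd2, which carries that unit further in mitochondria, was higher by 0.89 ± 0.15 in females and 0.86 ± 0.16 in males (adjusted p = 5.22e-06 and 5.37e-05). Its difference was not alike along the code numbers, with 1.44 and -0.26 in the first and the last block of females and 0.69 and -0.24 in those of males. Aldh1l2, which oxidizes the one-carbon unit in mitochondria, was higher by 1.35 ± 0.18 in females and 1.11 ± 0.18 in males (adjusted p = 7.51e-09 and 5.01e-06).

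Aldh18a1 and Cth, of proline and cysteine synthesis, were also higher. Aldh18a1, which starts proline synthesis from glutamate, had a signal of 744.7 in high females (median, range 317 to 1186) and 346.7 in low females (154.2 to 472.1), and 669.5 in high males (344.4 to 1014) and 282.8 in low males (185.5 to 475.6). In females 18 of the 23 high cultures, and in males 20 of 22, lay above every low culture. Its difference was 0.99 ± 0.10 in females and 1.08 ± 0.11 in males (limma adjusted p = 5.03e-12 and 6.72e-13), and it was 1.28 and 1.34 in the first and the last block of females and 0.83 and 1.16 in those of males. Cth, which makes cysteine from cystathionine, had a signal of 286.3 in high females (median, range 119.5 to 669.3) and 92.2 in low females (38.7 to 135.1), and 165.3 in high males (89.3 to 614.1) and 82.8 in low males (37.8 to 154.8). In females 21 of the 23 high cultures exceeded every low culture, against 13 of 22 in males. Its difference was 1.76 ± 0.17 in females and 1.21 ± 0.18 in males (adjusted p = 4.85e-13 and 5.04e-07), and the medians of its low cultures lay under the signal minimum of 100. Got1, the cytosolic aspartate transaminase, was higher by 0.25 ± 0.07 in females and 0.29 ± 0.07 in males (adjusted p = 0.00371 and 0.00206).

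The same list held enzymes that were lower. Glul, which makes glutamine, had a difference of -0.65 ± 0.14 in females and -0.63 ± 0.14 in males (limma adjusted p = 0.0001 and 0.000635), and Arg2, the mitochondrial arginase, one of -0.91 ± 0.20 in females and -0.74 ± 0.21 in males (adjusted p = 0.000298 and 0.00847). Glul differed by -0.92 and 0.03 in the first and the last block of females and -0.87 and -0.18 in those of males, and Arg2 by -1.30 and 0.01 in the first and the last block of females and -0.73 and -0.31 in those of males. Arg1, the cytosolic arginase, was lower in high females (-2.76 ± 0.88, adjusted p = 0.0113) and had a difference of -1.59 ± 0.90 in males (adjusted p = 0.229). Its signal was 110.1 in high females (median, range 2.7 to 24619) and 1080 in low females (2.7 to 43046), and 103.7 in high males (5.3 to 12566) and 685.1 in low males (4.4 to 38535), so that single cultures of one group differed far more than the groups did.

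Among 22 measured amino-acid transporters, 6 were higher and 1 lower in high females, and 6 were higher and 2 lower in high males. In both sexes 5 were higher, and the list medians were 0.07 in females and 0.05 in males. The list median was 0.18 and 0.08 in the first and the last block of females and 0.05 and 0.01 in those of males. With a spline of the code number 3 members passed upwards in females and 2 in males. Slc7a5 (LAT1), which exchanges glutamine for leucine and other large neutral amino acids, had the largest mean difference over both sexes of the 806 genes. Its signal was 297.7 in high females (median, range 32.1 to 779.4) and 10.9 in low females (5.8 to 42.3), and 248.8 in high males (12 to 649.8) and 12.6 in low males (5.8 to 292). In females 22 of the 23 high cultures lay above every low culture, and in males 10 of 22 did. The difference was 4.16 ± 0.28 in females and 3.30 ± 0.29 in males (limma adjusted p = 7.6e-21 and 8.85e-15). The medians of its low cultures lay far under the signal minimum, and the size of the difference depended on the pseudocount. It was 3.16 in females and 2.54 in males with a pseudocount of 16. Without covariates it was 4.38 and 3.65 in the first and the last block of females and 0.77 and 3.36 in those of males.

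Slc7a1, the main importer of arginine and lysine, had a signal of 843 in high females (median, range 405.1 to 2609) and 306.3 in low females (214.6 to 483.5), and 958.8 in high males (342.5 to 2541) and 311.1 in low males (166.1 to 876.3). In females 22 of the 23 low cultures lay below every high culture, against 15 of 22 in males. The difference was 1.44 ± 0.12 in females and 1.30 ± 0.12 in males (limma adjusted p = 4.33e-17 and 2.93e-14), with 2.03 and 0.65 in the first and the last block of females and 0.88 and 0.86 in those of males. Slc1a4, a carrier of alanine, serine and cysteine, was higher by 1.11 ± 0.15 in females and 0.69 ± 0.16 in males (adjusted p = 3.26e-08 and 0.00101). Slc38a2, which takes up glutamine and other neutral amino acids with sodium, was higher by 0.23 ± 0.08 in females and 0.30 ± 0.08 in males (adjusted p = 0.0142 and 0.00408).

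The 2 chains of the cystine importer did not pass the test. Slc7a11, its transport subunit, had a signal of 537.9 in high females (median, range 111.6 to 1359) and 346.1 in low females (147.8 to 7299), and 677.6 in high males (174.3 to 1139) and 658 in low males (190.2 to 5466). The groups overlapped widely, and the signals above every high culture of the same sex belonged to 4 low females and 6 low males. The difference was 0.08 ± 0.32 in females and -0.23 ± 0.33 in males (limma adjusted p = 0.877 and 0.68), with 0.56 and -2.09 in the first and the last block of females and 0.96 and -1.77 in those of males. Slc3a2, the chain that Slc7a11 shares with Slc7a5, had differences of -0.03 ± 0.07 in females and 0.08 ± 0.08 in males (adjusted p = 0.803 and 0.531).

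**Figure D3:**
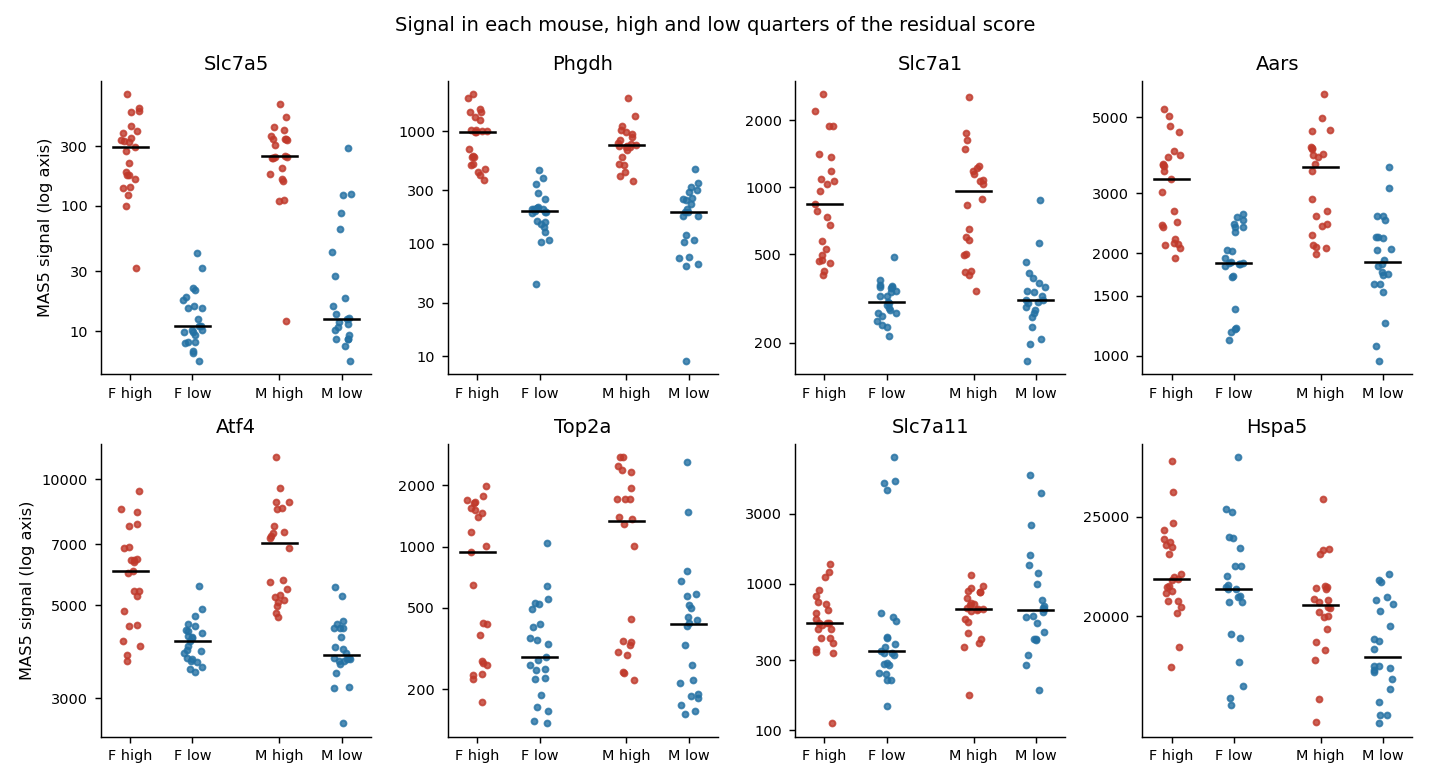
MAS5 signal (log axis) of 8 genes in each high (red) and low (blue) culture of females (F) and males (M), with the group median as a line. Phgdh has medians of 995.9 in high and 196.1 in low females, while the groups overlap over most of their range for Slc7a11 and Hspa5.

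The cytosolic aminoacyl-tRNA synthetases, which load tRNAs with their amino acids, were mostly higher. Of 19 measured members, 15 were higher and 1 lower in high females, and 15 were higher and 0 (0 unadjusted) lower in high males. In both sexes 14 were higher, and the list medians were 0.27 in females and 0.27 in males, against -0.00 and 0.02 over all genes. Aars, the enzyme for alanine, had a signal of 3302 in high females (median, range 1938 to 5298) and 1865 in low females (1114 to 2605), and 3569 in high males (1983 to 5846) and 1877 in low males (965.4 to 3572). Its groups overlapped, with 14 of 23 high females and 11 of 22 high males above every low culture. The difference was 0.69 ± 0.07 in females and 0.69 ± 0.07 in males (limma adjusted p = 4.85e-13 and 1.77e-12), with 0.70 and 0.76 in the first and the last block of females and 0.33 and 0.73 in those of males.

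Cars, for cysteine, was higher by 0.52 ± 0.05 in females and 0.53 ± 0.05 in males (limma adjusted p = 4.85e-13 and 1.01e-12), Gars, for glycine, by 0.62 ± 0.06 in females and 0.42 ± 0.07 in males (adjusted p = 5.03e-12 and 2.38e-06), and Yars, for tyrosine, by 0.49 ± 0.08 in females and 0.69 ± 0.08 in males (adjusted p = 1.18e-06 and 8.95e-10). Qars, for glutamine, was the exception, with -0.13 ± 0.05 in females (adjusted p = 0.0388) and 0.02 ± 0.05 in males (adjusted p = 0.86). The median of the list was 0.28 and 0.15 in the first and the last block of females and 0.18 and 0.18 in those of males. With the block of code numbers as a term, 11 members passed upwards in the female comparison and 8 in the male one. Of 14 measured mitochondrial synthetases, 1 was higher and 1 lower in high females, and 0 (1 unadjusted) were higher and 0 (0 unadjusted) lower in high males in limma's test, with list medians of 0.09 in females and 0.08 in males.

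Atf4 mRNA was higher in the high cultures, although the protein was not measured. Its signal was 6042 in high females (median, range 3686 to 9405) and 4106 in low females (3466 to 5556), and 7040 in high males (4694 to 11312) and 3797 in low males (2609 to 5527). In males 20 of the 22 low cultures lay below every high culture, against 5 of 23 in females. The difference was 0.48 ± 0.06 in females and 0.73 ± 0.06 in males (limma adjusted p = 5.14e-09 and 8.14e-15), with 0.80 and 0.19 in the first and the last block of females and 0.61 and 0.56 in those of males. Of 27 measured regulators and other targets of the ATF4 pathway, 7 were higher and 6 lower in high females, and 12 were higher and 2 lower in high males, with list medians of 0.08 in females and 0.17 in males. The list median was 0.30 and -0.11 in the first and the last block of females and 0.33 and 0.00 in those of males. With a spline of the code number 4 members passed upwards in females and 2 in males.

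Within that list 7 genes were higher and 2 lower in both sexes. Atf3 and Jdp2, transcription factors of the AP-1 and ATF families, were higher by 0.49 ± 0.13 and 0.44 ± 0.08 in females and by 0.62 ± 0.13 and 0.49 ± 0.08 in males. Atf3 differed by 0.83 and -0.20 in the first and the last block of females and 0.27 and 0.29 in those of males, and Jdp2 by 0.47 and 0.58 in the first and the last block of females and 0.47 and 0.31 in those of males. Pck2, the mitochondrial enzyme that makes phosphoenolpyruvate, was higher by 0.52 ± 0.10 in females and 0.92 ± 0.10 in males (limma adjusted p = 2.7e-05 and 6.16e-11), and Ndrg1, a stress-responsive gene, by 0.94 ± 0.17 in females and 1.21 ± 0.18 in males (adjusted p = 1.5e-05 and 5.69e-07). The 2 that were lower were Cebpb, a C/EBP transcription factor (-0.33 ± 0.07 in females and -0.24 ± 0.07 in males), and Txnip, which restrains glucose uptake (-0.48 ± 0.09 in females and -0.43 ± 0.09 in males). Nupr1, a stress-induced chromatin protein, had differences of -0.17 ± 0.12 in females and 0.05 ± 0.12 in males (adjusted p = 0.274 and 0.819). Sesn2 and Ddit4, which both restrain mTORC1, had differences of 0.14 ± 0.08 in females and 0.28 ± 0.08 in males (adjusted p = 0.183 and 0.0106) and of -0.73 ± 0.21 in females and -0.25 ± 0.22 in males (adjusted p = 0.0057 and 0.46).

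ATF4 with a C/EBP partner binds DNA elements with the core TGATGNAA. This motif was searched on both strands from 250 bases before to 50 bases after the start of each gene in RefSeq (GRCm38.p6), and 4.51% of 27025 genes with such a window held it, as did 2.71% of the 8312 tested genes with a window. Of the 36 genes of the synthesis, transporter, cytosolic synthetase and ATF4 lists that were higher in both sexes, 26 had a window and 10 of them held the motif. These were Aars, Gars, Iars, Tars, Yars, Got1, Slc1a4, Atf3, Jdp2 and Pck2. Of the other 54 measured genes of these lists, 42 had a window and 4 held it, and of the score genes 3 of 5 did. Shown are 60 bases around the motif, upstream of the start, for 6 of the 10 genes and for 2 of the score genes, so that the element can be compared between them. Each reads 5′ to 3′ along the gene's strand, with the motif or its reverse complement in capitals.
Aars: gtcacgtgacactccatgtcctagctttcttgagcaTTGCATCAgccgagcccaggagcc
Gars: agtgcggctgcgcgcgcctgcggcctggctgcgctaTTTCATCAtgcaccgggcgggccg
Got1: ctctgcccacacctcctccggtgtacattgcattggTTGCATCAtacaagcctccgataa
Atf3: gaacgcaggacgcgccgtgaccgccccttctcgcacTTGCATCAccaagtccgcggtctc
Jdp2: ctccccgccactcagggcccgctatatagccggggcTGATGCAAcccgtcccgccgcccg
Pck2: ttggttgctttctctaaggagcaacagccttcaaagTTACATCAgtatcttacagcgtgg
Asns: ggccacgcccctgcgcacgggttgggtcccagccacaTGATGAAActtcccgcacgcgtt
Chac1: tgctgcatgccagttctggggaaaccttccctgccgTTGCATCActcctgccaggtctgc
They lie at chr8:111033694-111033753 for Aars (plus strand), chr6:55037935-55037994 for Gars (plus strand), chr19:43524684-43524743 for Got1 (minus strand), chr1:191183420-191183479 for Atf3 (minus strand), chr12:85599347-85599406 for Jdp2 (plus strand), chr14:55540127-55540186 for Pck2 (plus strand), chr6:7693210-7693269 for Asns (minus strand) and chr2:119351013-119351072 for Chac1 (plus strand), with the motif between 23 and 193 bases before the start. Binding was not measured, and a match describes these letters only.

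Of 31 measured chaperones and degradation factors of the endoplasmic reticulum, 8 were higher and 3 lower in high females. In high males 7 were higher and 0 (3 unadjusted) lower, and the list medians were 0.05 in females and 0.12 in males. Over all genes 17.4% were higher and 17.1% lower in females, and 11.5% higher and 7.19% lower in males. Hspa5 (BiP), the chief chaperone of the endoplasmic reticulum, had a signal of 21728 in high females (median, range 17842 to 28383) and 21272 in low females (16369 to 28612). It was 20520 in high males (15753 to 26057) and 18229 in low males (15706 to 21975). The groups overlapped over most of their range, and the difference was 0.06 ± 0.05 in females and 0.12 ± 0.05 in males (limma adjusted p = 0.395 and 0.073). Herpud1, which takes part in degradation, was higher by 0.45 ± 0.13 in females and 0.74 ± 0.14 in males (adjusted p = 0.0064 and 4.71e-05), and Manf, a secreted survival factor, by 0.28 ± 0.06 in females and 0.19 ± 0.06 in males (adjusted p = 0.000162 and 0.0269). Xbp1, a transcription factor of the unfolded protein response, was lower in females (-0.21 ± 0.04, adjusted p = 2.45e-05) and had a difference of -0.11 ± 0.04 in males (adjusted p = 0.0715).

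Of 17 measured genes of eIF2, its kinases and its exchange factor, 5 were higher and 4 lower in high females, and 3 were higher and 0 (0 unadjusted) lower in high males. Impact, an inhibitor of GCN2, was higher by 0.35 ± 0.07 in females and 0.30 ± 0.07 in males (limma adjusted p = 6.96e-05 and 0.00249), and Eif2b1, a subunit of the exchange factor, by 0.30 ± 0.05 in females and 0.19 ± 0.05 in males (adjusted p = 2.48e-06 and 0.00809). Eif2ak3, the kinase PERK, was lower in females (-0.23 ± 0.05, adjusted p = 0.000201) and had a difference of -0.08 ± 0.05 in males (adjusted p = 0.289). Of 24 measured genes of amino-acid sensing by mTORC1, 4 were higher and 1 lower in high females, and 4 were higher and 2 lower in high males. These counts stand beside 17.4% of all genes higher and 17.1% lower in females, and 11.5% higher and 7.19% lower in males. In both sexes 1 member was higher and 1 lower. Fnip2, a partner of folliculin, was higher by 0.30 ± 0.08 in females and 0.33 ± 0.09 in males, and Ulk1, a kinase that starts autophagy, had differences of -0.49 ± 0.08 in females and -0.37 ± 0.08 in males.

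Genes of cell division were higher in the high cultures of both sexes. Of 23 measured mitosis genes, 22 were higher and 0 (0 unadjusted) lower in high females, and 22 were higher and 0 (0 unadjusted) lower in high males in limma's test, with list medians of 0.99 in females and 1.02 in males. Of 23 measured replication genes, 22 were higher and 0 (0 unadjusted) lower in high females, and 22 were higher and 0 (0 unadjusted) lower in high males, with medians of 0.59 in females and 0.55 in males. Top2a, which untangles DNA before chromosomes part, had a signal of 941.5 in high females (median, range 172.6 to 1977) and 288.5 in low females (135.5 to 1040), and 1327 in high males (220.9 to 2747) and 416.1 in low males (151.3 to 2611). The groups overlapped over much of this range, and the difference was 1.01 ± 0.15 in females and 1.02 ± 0.16 in males (limma adjusted p = 3.18e-07 and 2.01e-06). Cdc20, which starts the separation of chromosomes, was higher by 0.94 ± 0.15 in females and 1.09 ± 0.15 in males, and Rrm2, which supplies deoxynucleotides, by 1.67 ± 0.22 in females and 1.22 ± 0.22 in males. Mki67, a marker of dividing cells, was higher in females (0.72 ± 0.14, adjusted p = 5.22e-05) and had a difference of 0.36 ± 0.15 in males (adjusted p = 0.0781).

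The difference of the mitosis genes varied along the code numbers. Their median difference was 1.34 and 0.90 in the first and the last block of females and 0.10 and 0.72 in those of males, and that of Top2a was 1.39 and 0.75 in the first and the last block of females and -0.07 and 0.59 in those of males. With the mean of the mitosis genes as a covariate, 14 of the 19 cytosolic synthetases passed upwards in females and 16 in males, as did 7 and 8 of the 22 synthesis enzymes. With this covariate the males' difference of Rrm2 was -0.01. With the same covariate Phgdh differed by 1.68 in females and 1.77 in males, Slc7a1 by 1.52 in females and 1.38 in males and Atf4 by 0.57 in females and 0.82 in males. Over all genes 239 were higher and 175 lower in both sexes with it. With a spline of the code number, 20 mitosis genes passed upwards in females and 3 in males. In whole cultures, fewer cells of a kind and less RNA per cell cannot be told apart.

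Of 20 measured genes of sterol synthesis, 15 were higher and 0 (0 unadjusted) lower in high females, and 8 were higher and 0 (0 unadjusted) lower in high males by limma, with medians of 0.52 in females and 0.30 in males. Fdps, which makes farnesyl diphosphate, was higher by 0.97 ± 0.15 in females and 0.54 ± 0.15 in males (adjusted p = 2.2e-07 and 0.00721), and Dhcr7, which acts late in cholesterol synthesis, by 0.75 ± 0.13 in females and 0.55 ± 0.13 in males (adjusted p = 4.59e-06 and 0.00197). Sc5d, another late enzyme, was higher by 0.68 ± 0.10 in females and 0.41 ± 0.11 in males, and Insig1, a feedback regulator of the pathway, by 0.83 ± 0.16 in females and 0.58 ± 0.16 in males. The list median was 0.05 and 0.56 in the first and the last block of females and -0.37 and 0.57 in those of males, so that its direction was not the same throughout the males. With a spline of the code number 4 of its genes passed upwards in females and 0 (0 unadjusted) in males (limma), with medians of 0.27 in females and -0.04 in males, and Dhcr7 differed by -0.0047 in males.

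Of 20 measured genes of glycolysis and the hypoxia response, 0 (0 unadjusted) were higher and 12 lower in high females, and 0 (0 unadjusted) were higher and 5 lower in high males by limma, with medians of -0.27 in females and -0.14 in males. Pdk1, a kinase that inhibits pyruvate dehydrogenase, had a difference of -0.78 ± 0.12 in females and -0.46 ± 0.12 in males (adjusted p = 1.8e-07 and 0.00383), and Bnip3, a hypoxia-responsive gene of mitochondrial turnover, one of -0.77 ± 0.14 in females and -0.43 ± 0.14 in males (adjusted p = 8.31e-06 and 0.0285). Pfkl, the liver type of phosphofructokinase, was lower in females (-0.65 ± 0.10, adjusted p = 1.13e-06) and had a difference of -0.29 ± 0.11 in males (adjusted p = 0.0516). The list median was -0.22 and -0.37 in the first and the last block of females and 0.09 and -0.37 in those of males. With a spline of the code number 2 members passed downwards in females and 0 (1 unadjusted) in males (limma), with medians of -0.18 in females and -0.18 in males. With residuals on a spline 1 passed downwards in females and 14 in males, with medians of -0.08 in females and -0.21 in males. With the mitosis covariate 3 passed downwards and 1 upwards in females, and 0 (1 unadjusted) passed downwards in males (limma).

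Inflammatory genes went both ways. Of 22 measured, 7 were higher and 7 lower in high females, and 7 were higher and 5 lower in high males. The chemokines Ccl2 and Ccl4 were higher, by 1.95 ± 0.29 and 1.18 ± 0.17 in females and by 0.96 ± 0.30 and 0.71 ± 0.18 in males. Il1b, the cytokine interleukin 1β, had a signal of 956.8 in high females (median, range 155.2 to 15041) and 6170 in low females (261.9 to 35636), and 372.6 in high males (96.3 to 15229) and 2729 in low males (135.1 to 32412). Its groups overlapped over most of this range, and its difference was -2.11 ± 0.38 in females and -1.29 ± 0.39 in males (limma adjusted p = 9.96e-06 and 0.0153). Ier3, an early response gene, had differences of -0.93 ± 0.15 in females and -0.65 ± 0.15 in males, and Nfkbia, the inhibitor of NF-κB, of -0.21 ± 0.03 in females and -0.17 ± 0.03 in males.

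Of 19 measured interferon response genes, 8 were higher and 0 (0 unadjusted) lower in high females, and 3 were higher and 0 (0 unadjusted) lower in high males by limma, with medians of 0.48 in females and 0.27 in males. Usp18, which restrains interferon signalling, was higher by 0.77 ± 0.19 in females and 0.54 ± 0.19 in males (adjusted p = 0.000877 and 0.0406), and Rsad2, an antiviral enzyme, by 0.82 ± 0.22 in females and 0.70 ± 0.23 in males (adjusted p = 0.0028 and 0.0245). With the mitosis covariate 1 interferon response gene passed upwards in females and 0 (0 unadjusted) in males (limma), with medians of 0.10 in females and 0.03 in males. With a spline of the code number 11 passed upwards in females and 2 in males, with medians of 0.90 in females and 0.60 in males. The list median was 0.26 and 1.10 in the first and the last block of females and 0.42 and 0.50 in those of males. Of 16 measured genes of lipid uptake and efflux, 9 were higher and 2 lower in high females, and 3 were higher and 1 lower in high males. Pparg, a nuclear receptor that responds to fatty acids, was higher by 1.49 ± 0.27 in females and 1.09 ± 0.28 in males (adjusted p = 9.56e-06 and 0.00314), and Abca1, which exports cholesterol, had a difference of -0.36 ± 0.07 in females and -0.30 ± 0.07 in males (adjusted p = 3.22e-05 and 0.00167). Lpl, which releases fatty acids from lipoproteins, was higher in females (0.98 ± 0.18, adjusted p = 1.02e-05) and had a difference of 0.42 ± 0.18 in males (adjusted p = 0.0998).

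**Figure D4:**
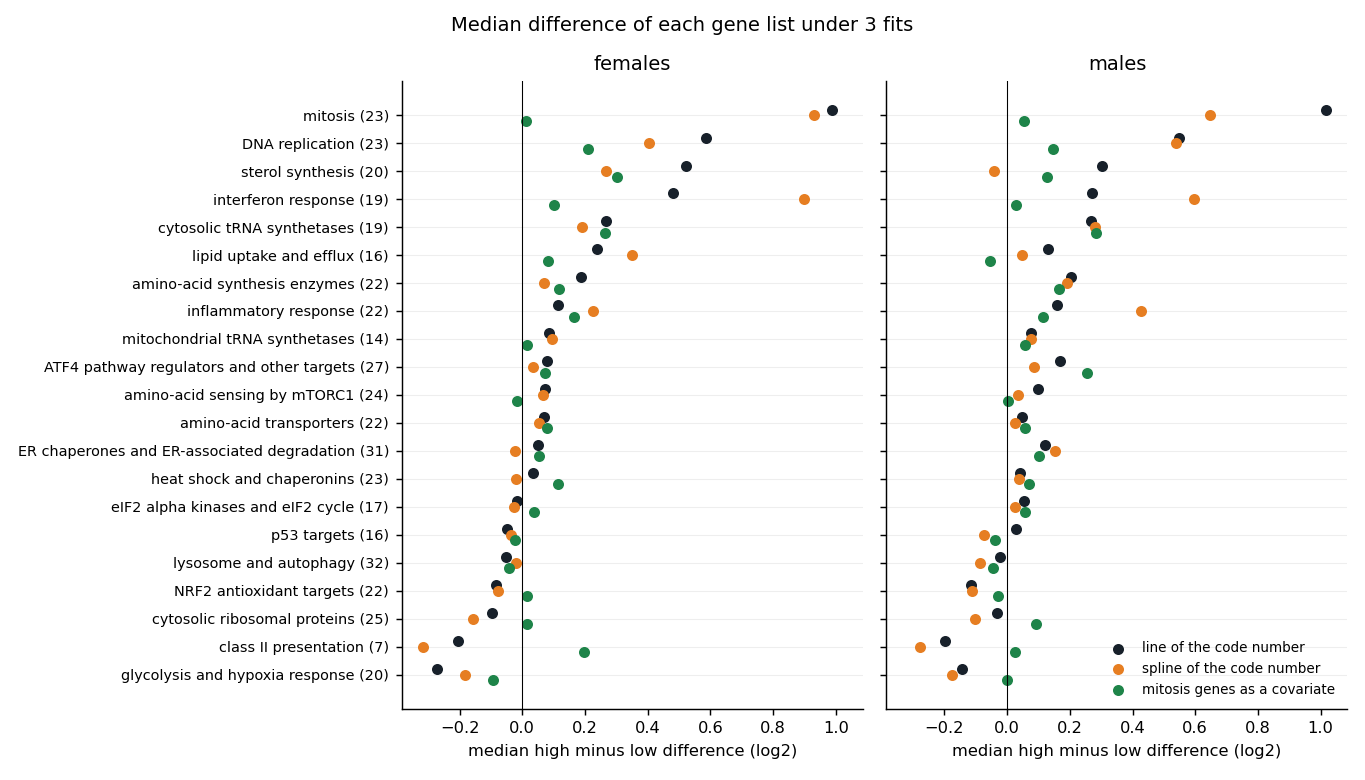
Median high minus low difference (log2, x axis) of each gene list, with its number of measured genes in parentheses, in females (left) and males (right), fitted with a line of the code number (black), a spline of it (orange) or the mitosis genes as a covariate (green). The cytosolic tRNA synthetases lie between 0.19 and 0.28 in all of these fits, and the sterol list in males lies at 0.30 with the line and at -0.04 with the spline.

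Among the other stress pathways, the medians of the p53 and heat shock lists lay between -0.05 and 0.04. Those of the NRF2 list were -0.08 in females and -0.12 in males. The NRF2 list median was -0.10 and -0.25 in the first and the last block of females and -0.09 and -0.17 in those of males. With the mitosis covariate it was 0.02 in females and -0.03 in males. Of 22 measured NRF2 antioxidant targets, 3 were higher and 4 lower in high females, and 0 (1 unadjusted) were higher and 3 lower in high males (medians -0.08 in females and -0.12 in males). Me1, which makes NADPH, was higher in females (0.51 ± 0.10, adjusted p = 5.79e-05), with 0.20 ± 0.11 in males (adjusted p = 0.185), and Abcc1, an exporter of glutathione conjugates, had differences of -0.37 ± 0.11 in females and -0.44 ± 0.11 in males. Of 16 measured p53 targets, 5 were higher and 5 lower in high females, and 3 were higher and 4 lower in high males (medians -0.05 in females and 0.03 in males), and Plk2, a kinase of the cell cycle, was higher by 1.27 ± 0.18 in females and 0.85 ± 0.19 in males. Of 23 measured heat shock proteins and chaperonins, 7 were higher and 2 lower in high females, and 4 were higher and 1 lower in high males (medians 0.03 in females and 0.04 in males), with Hspd1, the mitochondrial chaperonin, higher by 0.39 ± 0.06 in females and 0.22 ± 0.06 in males.

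Of 25 measured cytosolic ribosomal proteins, 2 were higher and 5 lower in high females, and 0 (1 unadjusted) were higher and 0 (0 unadjusted) lower in high males by limma, with medians of -0.10 in females and -0.03 in males. With the block of code numbers as a term, 18 passed downwards in females and 0 (16 unadjusted) in males (limma). The list median was -0.03 and -0.34 in the first and the last block of females and -0.10 and -0.19 in those of males. With quantile normalization it was 0.003 in females and 0.03 in males. Of 32 measured genes of lysosome and autophagy, 5 were higher and 7 lower in high females, and 2 were higher and 6 lower in high males, with medians of -0.05 in females and -0.02 in males. In both sexes 1 was higher and 3 were lower, beside 7.96% and 5.27% of all genes. Of 7 measured class II genes, 0 (0 unadjusted) were higher and 1 lower in high females, and 0 (0 unadjusted) were higher and 2 lower in high males, with medians of -0.21 in females and -0.20 in males.

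Besides Slc7a5 and Phgdh, the 8 genes with the largest increases in both sexes included 6 that were in none of the amino-acid lists. Calcb, Rcan2, Srpk3 and Morc4 had medians under the signal minimum of 100 in the low cultures of both sexes, so that they passed it through other mice and the sizes of their differences rest on low signals. Rcan2, an inhibitor of the phosphatase calcineurin, was higher by 2.52 ± 0.39 in females and 2.43 ± 0.40 in males, and Calcb, a calcitonin-related peptide, by 2.43 ± 0.40 in females and 2.08 ± 0.40 in males. Morc4 and Srpk3, both on chromosome X, were higher by 2.26 ± 0.33 and 2.20 ± 0.33 in females and by 1.98 ± 0.34 and 2.02 ± 0.33 in males. Ighm, the heavy chain of immunoglobulin M, was higher by 2.01 ± 0.40 in females and 2.04 ± 0.41 in males. Slc13a3, a carrier of dicarboxylates, had a signal of 11446 in high females (median, range 2910 to 22852) and 2358 in low females (59.3 to 10214), and 15970 in high males (2425 to 25677) and 3182 in low males (126.3 to 27889). The groups overlapped in both sexes, and the difference was 2.21 ± 0.36 in females and 2.11 ± 0.37 in males (limma adjusted p = 1.51e-06 and 2.2e-05), with 1.04 and 3.38 in the first and the last block of females and 0.03 and 3.55 in those of males.

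The 8 genes with the largest decreases in both sexes included secreted proteins of inflammation and of neutrophils. Besides Il1b they were Saa1, an acute phase protein (-2.56 ± 0.41 in females and -1.25 ± 0.42 in males), the chemokines Ppbp (-2.06 ± 0.40 in females and -1.56 ± 0.41 in males) and Cxcl3 (-1.34 ± 0.43 in females and -1.20 ± 0.44 in males), and the neutrophil collagenase Mmp8 (-1.34 ± 0.31 in females and -1.10 ± 0.32 in males). The others were the surface proteins Ly6i (-2.23 ± 0.42 in females and -1.33 ± 0.43 in males) and Adgre4 (-2.17 ± 0.37 in females and -1.25 ± 0.37 in males), and Chil1, a chitinase-like protein (-1.88 ± 0.30 in females and -1.42 ± 0.31 in males). Saa1 had a signal of 483.1 in high females (median, range 6.4 to 5768) and 2432 in low females (36.1 to 14090), and 102.1 in high males (2.1 to 8671) and 1383 in low males (37.2 to 12041), with wide overlap. Within the first block of males Ly6i, Chil1, Cxcl3 and Mmp8 had differences of 3.18, 1.23, 0.78 and 0.59. That block held 2 low males, and with the block as a term Ly6i differed by 0.28 in males.

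Macrophage markers were strong in all groups. Their summed signal ranged from 178020 to 227940 in high females and 164490 to 253220 in low females, and from 173420 to 241760 in high males and 166540 to 256580 in low males. Of 15 measured, 0 (0 unadjusted) were higher and 3 lower in high females, and 0 (3 unadjusted) were higher and 2 lower in high males by limma. Csf1r, the M-CSF receptor, had differences of -0.22 ± 0.04 in females and -0.14 ± 0.04 in males, and Cd163, a scavenger receptor, of -0.96 ± 0.20 in females and -0.61 ± 0.21 in males.

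Some markers of other cells differed between the groups, and their part in the results was not tested. The marker counts stand beside 17.4% of all genes higher and 17.1% lower in females, and 11.5% higher and 7.19% lower in males. Of 12 neutrophil markers 5 were measured, of which 0 (0 unadjusted) were higher and 3 lower in high females, and 0 (0 unadjusted) were higher and 1 lower in high males by limma (medians -0.89 in females and -0.76 in males). The summed signal of the 10 annotated neutrophil markers, measured or not, was 8118 in high females (median, range 846.1 to 23328) and 10821 in low females (2383 to 70648), and 6061 in high males (872.8 to 24850) and 12337 in low males (1190 to 58326), while S100a9, Ngp, Elane and Mpo were below the signal minimum. Of 15 stromal markers 12 were measured, of which 1 was higher and 0 (0 unadjusted) lower in high females, and 1 was higher and 0 (0 unadjusted) lower in high males (medians 0.53 in females and 0.75 in males). The sum of the 14 annotated stromal markers was 14853 in high females (median, range 1359 to 53231) and 7236 in low females (1602 to 37209), and 19337 in high males (1640 to 49688) and 13301 in low males (1118 to 42435). The one that passed in each sex was Cxcl12, a chemokine of marrow stroma (1.66 ± 0.62 in females and 1.74 ± 0.63 in males), with -0.21 in males when a spline of the code number was fitted.

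Of 9 B cell markers Cd79b and Blnk reached the signal minimum and both were higher, by 0.83 ± 0.26 and 1.37 ± 0.19 in females and by 1.29 ± 0.26 and 0.79 ± 0.19 in males. The summed signal of the 8 annotated B cell markers was 2445 in high females (median, range 1050 to 6536) and 1266 in low females (535.5 to 4389). It was 3234 in high males (2265 to 5868) and 2038 in low males (669.8 to 5899). Blnk was the brightest of the 8, with medians of 1791 and 744.1 in high and low females and 2729 and 1547 in high and low males. The defining markers Cd79a, Ms4a1 and Pax5 were below the minimum. Of 6 measured osteoclast markers, 3 were higher and 2 lower in high females, and 1 was higher and 2 lower in high males, and of 3 dendritic cell markers, 2 were higher and 0 (0 unadjusted) lower in high females, and 1 was higher and 0 (1 unadjusted) lower in high males. Of 2 endothelial markers, 0 (0 unadjusted) were higher and 1 lower in high females, and 0 (0 unadjusted) were higher and 0 (1 unadjusted) lower in high males. No marker of T and NK cells, mast cells or erythroid cells reached the signal minimum.

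The 93 mice between the groups were not used in the comparison, although the same score ranks them. Along the residual score 99 genes rose and 128 fell among them (limma, 1 slope for both sexes). Of the 806 genes higher in both sexes, 781 had a slope above 0 and 74 passed upwards, and of the 533 lower genes 518 had a slope below 0 and 61 passed downwards, while 5029 of all 10123 genes had a slope above 0. The slope of Slc7a1 was 1.05 ± 0.13 log2 units per unit of the score (adjusted p = 1.39e-07), that of Phgdh 1.17 ± 0.18 (adjusted p = 3.18e-05), that of Slc7a5 2.34 ± 0.42 (adjusted p = 0.000427) and that of Atf4 0.39 ± 0.07 (adjusted p = 0.000151). Of the cytosolic synthetases 6 passed upwards and 16 of 19 had a slope above 0, and of the mitosis genes 2 passed and 23 of 23 did. Other lists did not follow the groups. The glycolysis and hypoxia list had a median slope of 0.02, with 10 of 20 genes above 0. That of the ribosomal proteins was 0.08, with 20 of 25 above 0, and that of the NRF2 list 0.07, with 15 of 22. In the 24 males that were left out, 5 genes passed along their own score and 1017 had an unadjusted p under 0.05. Slopes in the direction of the groups were found there for 720 of the 806 and 480 of the 533 genes, and 4933 of all 10123 genes had a slope above 0.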

How the data were processed

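Expression was measured in macrophages of 207 mice, 1 array each, so that replicates are different animals. The authors processed the arrays with MAS5 and deposited 1 table of signal intensities for 45101 probe sets (0.1 to 67866.1), scaled to a trimmed mean of 500. MAS5 summarises each array alone, and low intensities depend on its background estimate. Depth does not apply to arrays, and the number of mice limits the precision. Columns were assigned by the labels, with 0 unmapped. The deposited genotype table was not used here, since its mouse codes match no array. Of 35890 annotated probe sets, 34958 had 1 gene symbol and 932 several, which were not named.

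Intensities were analysed as log2(signal + 1). Mice were scored and divided within sex, and groups compared in 1 limma fit of 4 groups with the rank of the code number as a covariate for each sex. Control probe sets (64) and the 9 probe sets of the score genes were left out. The gene lists and the members were chosen with earlier results of these data known, and lists are described by counts and medians without a test. Named are the 8 largest differences in each direction among genes called in both sexes, up to 4 genes of each pathway list with the smallest p, and 16 fixed genes. Aldh1l2, Glul, Arg2, Arg1, Cebpb, Txnip, Qars, Tars, Iars, Got1, Cxcl12, Csf1r, Cd163, Cd79b and Blnk were chosen after their values were seen. Alternatives changed the pseudocount, signal minimum, scaling, covariates, score genes, group size, males used and test. The code was tested on simulated data. Models were fitted with limma 3.58.1 in R 4.3.3, and tables and plots made with pandas 2.3.3, scipy 1.17.1, matplotlib 3.10.9 and numpy 2.4.6 under Python 3.11.15.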

Additional observations from a re-analysis of the deposited data

Results flagged for a closer look

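For 6 genes the high minus low difference was not the same in females and males by the interaction term of the limma fit, which is what singled them out. The female minus male difference was -0.6966 on the log2 scale for Ap4m1, a subunit of an adaptor complex (adjusted p = 0.0428), and -0.4767 for Nrf1, a transcription factor of mitochondrial genes (adjusted p = 0.0428). It was -0.4302 for Pspc1, -0.3803 for Apba3, -0.3287 for Dxo and -0.2885 for Phkg2 (adjusted p = 0.044 each). Ap4m1 had medians of 143.8 MAS5 units in high and 191.8 in low females, and of 199.7 in high and 167.9 in low males. Pspc1 had 656.1 in high and 664.9 in low females, and 835.3 in high and 590.4 in low males. Over all genes 1301 had an unadjusted p under 0.05 for this term. The codes of females and males have different prefixes. The Gapdh ratios had medians of 0.868 and 0.943 in high and low females, and of 0.782 and 0.793 in high and low males. Sex and anything else that differed between these sets of arrays cannot be told apart.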

How the results depend on the processing

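Of 178 gene results (89 genes in each sex), 26 kept their direction and their side of the threshold under all alternatives in which they were tested. Without the Mann-Whitney test with Bonferroni adjustment, which the study's methods name, 49 did. Phgdh, Psph, Cth, Aldh18a1, Slc7a1, Slc7a5 and Cars were among the 26 in both sexes. Of these, Cth and Slc7a5 were tested under 20 of the 21 alternatives, and the others under 21. Genes with too low a signal were not tested under the raised signal minimum. The cause of the changes below was not tested. Both settings with a spline of the code number were chosen after seeing the data. Signals under about 100 MAS5 units limit what can be measured. No paired analysis was possible because each mouse gave 1 culture, and mice of different sex that share a number are different animals.

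Of the genes tested 17.4% were higher in high females, against 7.81% with the mitosis covariate, 7.36% with the spline, 4.89% with residuals on the spline and 0.701% with the Mann-Whitney test. Of the genes tested 17.1% were lower in high females, against 11.3% with the block of code numbers, 9.07% with the mitosis covariate, 5.5% with the spline, 3.29% with residuals on the spline and 0.336% with the Mann-Whitney test. Of the genes tested 11.5% were higher in high males, against 4.81% with the block of code numbers, 4.16% with the mitosis covariate, 17.8% with all males, 2.02% with the spline, 7.46% with residuals on the spline and 0.0988% with the Mann-Whitney test. Of the genes tested 7.19% were lower in high males, against 2.53% with no signal minimum, 10.9% with arrays scaled to 1 median, 2.63% with the block of code numbers, 2.87% with the mitosis covariate, 14.6% with all males, 1.07% with the spline and 0% (1230 genes at an unadjusted p under 0.05) with the Mann-Whitney test. Of the genes tested 7.96% were higher in both sexes, against 2.58% with the block of code numbers, 2.36% with the mitosis covariate, 0.919% with the spline, 2.69% with residuals on the spline and 0.0691% with the Mann-Whitney test. Of the genes tested 5.27% were lower in both sexes, against 1.83% with no signal minimum, 3.36% with no term for the code number, 1.4% with the block of code numbers, 1.73% with the mitosis covariate, 0.366% with the spline, 1.39% with residuals on the spline and 0% (773 genes unadjusted) with the Mann-Whitney test. With no signal minimum 18188 genes were tested instead of 10123, and 8.83% of them were higher and 7.98% lower in high females, 4.85% higher in high males and 3.27% higher in both sexes.

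The 6 sex differences became 0 with no signal minimum, with arrays scaled to 1 median, with no term for the code number, with the block of code numbers, with a score lacking Asns, with the spline and with residuals on the spline (554 to 1694 genes at an unadjusted p under 0.05 in limma), and 1 with quantile normalization, 80 with larger groups at each end, 110 with a slope over all mice, 81 with a score lacking Ddit3, 14 with a score lacking Chac1, 52 with a score from all probe sets of each gene, 33 with the RNA quality ratios and 167 with all males. The 227 slopes among the mice between the groups became 57 with no signal minimum, 1 with no term for the code number, 351 with the RNA quality ratios and 350 with the mitosis covariate. The 5 slopes in the left-out males became 0 with no signal minimum (1271 unadjusted), 3 with a minimum of 200 units, 3 with no term for the code number, 0 with the RNA quality ratios (770 unadjusted) and 8 with the mitosis covariate.

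The direction turned in these cases, with the main log2 difference in parentheses. Ly6i in males (-1.33) was 0.28 with the block of code numbers and 0.85 with the spline. Slc7a11 in females (0.081) was -0.65 with the block of code numbers, -0.65 with the spline and -0.071 with residuals on the spline. The Mann-Whitney test compares ranks and gives no log2 difference of its own. For Slc7a11 the value set beside that test was -0.98, although the group medians of these females pointed upwards. Slc7a11 in males (-0.23) was 0.18 with the RNA quality ratios and 0.42 with the mitosis covariate. Slc3a2 in females (-0.029) was 0.0082 with a slope over all mice, 0.0017 with a score lacking Asns, 0.020 with a score lacking Trib3, 0.0057 with a score lacking Ddit3, 0.0082 with a score lacking Chac1, 0.022 with a score lacking Psat1, 0.086 with the RNA quality ratios and 0.19 with the mitosis covariate. Slc3a2 in males (0.077) was -0.0017 with all males. Nupr1 in females (-0.17) was 0.015 with the block of code numbers, 0.080 with the spline and 0.064 with residuals on the spline. Nupr1 in males (0.052) was -0.030 with a score lacking Ddit3 and -0.013 with the RNA quality ratios, and the value set beside the Mann-Whitney test was -0.0039. Sesn2 in males (0.28) was -0.026 with the spline. Ddit4 in males (-0.25) was 0.26 with the mitosis covariate. Hspa5 in females (0.056) was -0.053 with the block of code numbers and -0.028 with the spline. Xbp1 in males (-0.11) was 0.010 with the spline. Mki67 in males (0.36) was -0.26 with the mitosis covariate and -0.079 with the spline. Rrm2 in males (1.22) was -0.011 with the mitosis covariate. Dhcr7 in males (0.55) was -0.0047 with the spline. Qars in males (0.017) was -0.017 with arrays scaled to 1 median, -0.090 with the block of code numbers, -0.0032 with the mitosis covariate, -0.21 with the spline and -0.081 with residuals on the spline. Cxcl12 in males (1.74) was -0.21 with the spline. The sex difference of Apba3 (-0.38) was 0.031 with residuals on the spline.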
